A study of Mus musculus with 4 samples.

Results

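The guidance genes described here are the Eph receptors, the ephrins, the Slits and their Robo receptors, and the netrins, netrin-G proteins and netrin receptors of the mouse that match these families by gene symbol, families picked with earlier results of these data known. The deposited table held 40 of them among 20032 genes. Total RNA of olfactory bulbs was sequenced in 4 libraries at postnatal day 11, on a mixed background of C57BL/6J, 129S6 and CD1. The 2 DCKO libraries came from mice with Sp8 Flox/Flox and Sp9 Flox/Flox alleles and the Dlx5/6-CIE transgene, which is named for a Dlx5/6 enhancer active in precursors of GABAergic neurons. Recombination is thus aimed at the interneuron lineage, whereas the RNA is that of the whole bulb. The 2 control libraries came from littermates without Cre, and the labels do not give the floxed alleles they carried. Nor do the labels say whether the replicates of a genotype were separate animals or pools, so the spread between replicates may in part be technical. Xist, the transcript of the inactive X chromosome, stood at 77.0 FPKM in DCKO replicate 1 and at most 0.0355 FPKM in the other libraries. DCKO replicate 1 alone thus held RNA of female tissue, and the part of sex in the results below was not tested.

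Ephrins and Eph receptors signal between touching cells. The A ephrins are held in the membrane by a lipid anchor and mostly bind EphA receptors, the B ephrins cross the membrane and mostly bind EphB receptors, and contact often repels the growing axon or migrating cell. Slits are secreted repellents read by Robo receptors, and in the postnatal forebrain they are known for steering the neuroblasts that travel from the ventricular wall to the bulb. Netrins attract through Dcc and Neo1 and repel through the Unc5 receptors, while the netrin-G proteins are lipid-anchored relatives that bind adhesion partners at synapses instead of Dcc.

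The targeted genes were low in the DCKO libraries, with 1.68 and 2.03 FPKM of Sp8 in DCKO against 32.0 and 26.7 FPKM in controls, and 0.0674 and 0.236 FPKM of Sp9 in DCKO against 24.0 and 30.7 FPKM in controls. FPKM are fragments scaled to transcript length and to the mapped fragments of the library, so that levels can be compared between genes. The authors' scaled fragment counts summed to 14632502 to 14899179 in DCKO and 15033308 to 15400982 in control libraries. Markers of the bulb were present, among them Tbx21 of mitral and tufted cells, with 84.7 and 92.5 FPKM in DCKO against 27.4 and 30.7 FPKM in controls. Of 13 markers of granule cells and other GABAergic interneurons, 13 fell, and their summed level was 149 to 229 FPKM in DCKO against 1127 to 1149 FPKM in controls. Of 8 markers of migrating neuroblasts 6 fell, and their summed level was 707 to 837 FPKM in DCKO against 1121 to 1126 FPKM in controls. All 8 tested mitral and tufted cell markers rose. In bulk tissue, fewer cells of a type and less RNA per cell cannot be told apart, and this holds for every result below.

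In DCKO bulbs 9 of the 37 tested guidance genes rose and 7 fell. The genes that rose were Ntng2, Unc5d, Efna1, Ntng1, Efnb1, Efna5, Efnb2, Ephb1 and Ephb3. The genes that fell were Epha6, Ntn4, Epha10, Slit1, Epha5, Epha4 and Efnb3. The largest changes were 3.85-fold lower mean FPKM for Epha6 and 2.81-fold higher mean FPKM for Unc5d. The test was limma on log2(FPKM + 1), DCKO minus control, over the 13434 genes that averaged 1 FPKM or more across the 4 libraries, and a gene was called where its p after Benjamini-Hochberg adjustment lay below 0.05. Over all tested genes 13.0% rose and 14.3% fell, or 27.3% in either direction, against 24.3% and 18.9% of the tested guidance genes. With each library shifted to the same median the split over all genes became 2225 higher and 1580 lower, against 1747 and 1926 as deposited, and that of the guidance genes became 12 and 7. Quantile normalization gave 11 and 7 guidance genes, and scaled counts gave 12 and 8. Other alternatives gave fewer that rose. Equal FPKM totals gave 8 and 7, no variance trend 7 and 8, and a replicate block 6 and 7. With no filter on low values, where 40 were tested, 6 rose and 8 fell. The median log2 change was 0.15 over the guidance genes and -0.02 over all tested genes, and the median size of the change regardless of sign was 0.41 and 0.23. The groups did not overlap for 31 of the 37 guidance genes, or 83.8%, against 71.5% of all tested genes. For a single gene the exact permutation p of 2 against 2 libraries cannot go below 0.333.

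**Figure D1:**
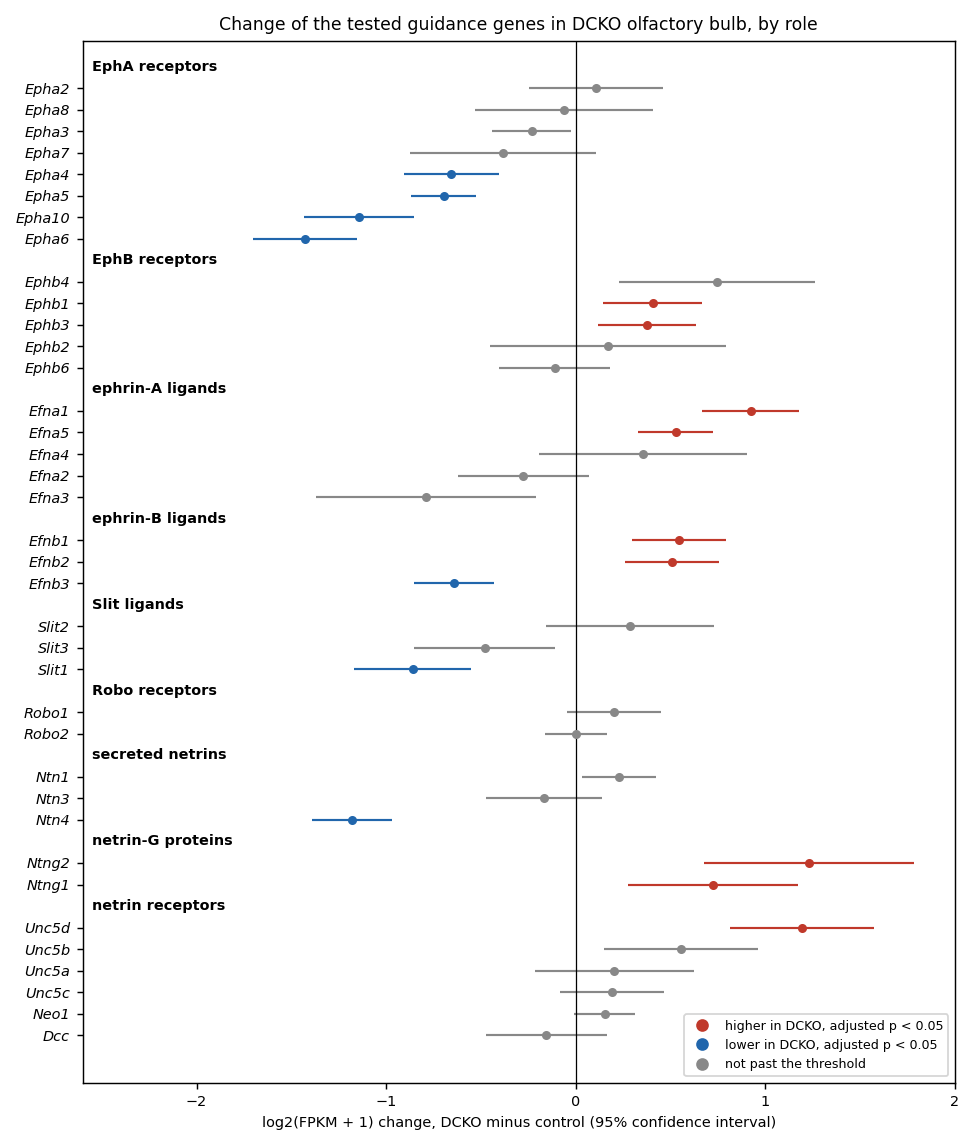
Log2 change of FPKM + 1, DCKO minus control, for the 37 tested guidance genes in 9 roles, with points for the limma estimate and bars for its 95% confidence interval. Of the 8 EphA receptors 7 lie left of 0 and 4 are past the threshold there, while of the 5 EphB receptors 4 lie right of 0 and 2 are past it.

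The sign of change was the same for all 16 called genes in all 14 alternatives or, for genes below a stricter filter, all 13. For the fits with 1 library left out or with another pseudocount this was fixed in advance, since the groups of none of the 16 overlapped. The filters, the fit with no variance trend and the replicate block leave the log2 change itself unaltered. Only equal FPKM totals, equal medians, quantile normalization and scaled counts could have turned a sign. The calls were less stable. Of the 16, 8 were called in each of the 4 fits that left out 1 library: Epha6, Epha10, Epha5, Ntn4, Slit1, Efnb3, Efna1 and Unc5d. Without DCKO replicate 1, DCKO replicate 2 or control replicate 2, 5 of the 9 higher genes were called in each fit. Without control replicate 1, 4 of the 9 were called, and Ephb4 and Unc5b were called in addition. Over all genes the number called higher also fell in these fits, to 1183 without DCKO replicate 1, 1384 without DCKO replicate 2, 1159 without control replicate 1 and 806 without control replicate 2, against 1747. Among those that fell, Epha4 alone lost its call, without control replicate 2 (limma adjusted p = 0.0583).

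For 4 of the genes called, the 250 bases before a RefSeq transcript start are shown here, because the removed factors belong to the Sp family, known for binding GC-rich boxes. Of the 13 called genes with a window in the RefSeq table, 5 had a window free of exons annotated in GENCODE M21, and from these the pair of lower and the pair of higher genes with matches are given. Capitals mark the letters GGGCGG or, on the other strand, CCGCCC. The windows are chr10:93640799-93641048 (+ strand) for Ntn4 and chr5:84417383-84417632 (- strand) for Epha5, which fell, and chr17:62881318-62881567 (- strand) for Efna5 and chr8:8661243-8661492 (- strand) for Efnb2, which rose, all in GRCm38.p6 and written 5′ to 3′. The Ntn4 window lies inside the annotated gene but outside its exons.
Ntn4: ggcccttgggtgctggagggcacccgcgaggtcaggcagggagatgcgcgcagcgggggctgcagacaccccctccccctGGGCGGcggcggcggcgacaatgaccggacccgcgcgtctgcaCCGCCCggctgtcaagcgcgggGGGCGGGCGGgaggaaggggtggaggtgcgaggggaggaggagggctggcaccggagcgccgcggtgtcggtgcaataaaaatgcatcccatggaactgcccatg
Epha5: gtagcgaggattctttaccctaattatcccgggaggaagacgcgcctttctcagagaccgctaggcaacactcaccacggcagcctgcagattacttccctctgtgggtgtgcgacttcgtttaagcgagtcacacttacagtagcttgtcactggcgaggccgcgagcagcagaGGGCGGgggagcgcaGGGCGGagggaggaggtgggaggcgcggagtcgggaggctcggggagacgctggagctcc
Efna5: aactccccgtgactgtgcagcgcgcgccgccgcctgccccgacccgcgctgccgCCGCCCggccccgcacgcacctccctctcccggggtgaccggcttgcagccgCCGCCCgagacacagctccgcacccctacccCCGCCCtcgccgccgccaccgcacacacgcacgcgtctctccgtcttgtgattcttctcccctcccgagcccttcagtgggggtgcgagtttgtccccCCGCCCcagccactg
Efnb2: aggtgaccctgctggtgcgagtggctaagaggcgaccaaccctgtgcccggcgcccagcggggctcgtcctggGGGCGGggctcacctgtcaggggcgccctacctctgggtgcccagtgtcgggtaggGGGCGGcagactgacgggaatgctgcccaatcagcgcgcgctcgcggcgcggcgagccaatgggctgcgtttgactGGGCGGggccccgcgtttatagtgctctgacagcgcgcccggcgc

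The Ntn4 window held 4 matches, of which a pair overlap, and the Efna5, Efnb2 and Epha5 windows held 4, 3 and 2. The Efnb1 window, the fifth free of exons, held 0. GGGCGG on either strand was found in the first window of 25 of 35 guidance genes (71.4%), against 60.3% of 9992 tested genes with a window and 32.7% of all 32851 windows of the table. It stood in 5 of 5 windows of genes that fell, 5 of 8 of genes that rose and 13 of 19 of tested genes that were not called. A match describes these letters and is no binding site.

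EphA receptors were the role with the most genes that fell. Of the 8 tested, 4 fell, 0 rose and 4 were not called, with a median log2 change of -0.52. Over all tested genes 14.3% fell and 13.0% rose. Summed over all 9 EphA genes in the table, the level was 30.0 and 31.8 FPKM in DCKO against 51.0 and 53.2 FPKM in controls, without overlap. Epha6 had the largest decrease of any guidance gene tested. This receptor of A ephrins had 1.56 and 1.36 FPKM in DCKO against 5.64 and 5.57 FPKM in controls (log2 change -1.43, SE 0.11, limma adjusted p = 0.00257). The replicates lay close together in each genotype, and the groups were far apart.

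Epha10, a receptor whose kinase domain is thought to be inactive, had 2.61 and 2.55 FPKM in DCKO against 6.33 and 7.54 FPKM in controls, a 2.69-fold lower mean (log2 change -1.14, SE 0.11, adjusted p = 0.00496). Epha5, the most abundant EphA gene, had 11.997 and 11.793 FPKM in DCKO against 19.7 and 20.1 FPKM in controls (log2 change -0.70, SE 0.07, adjusted p = 0.00454). Epha5 made up 37.1% to 40.0% of the EphA sum in DCKO and 37.8% to 38.6% in controls, so its share of the family was alike while its level was lower. Epha4, which binds ephrins of the A and B classes, had 3.30 and 3.65 FPKM in DCKO against 5.83 and 6.29 FPKM in controls (log2 change -0.66, SE 0.10, adjusted p = 0.0126). None of the 3 had overlapping groups, which was also so for 71.5% of all tested genes. Epha6 took 4.27% to 5.20% of the EphA sum in DCKO and 10.5% to 11.1% in controls, and Epha3 took 19.4% to 20.9% in DCKO and 14.2% to 14.5% in controls.

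Epha3, Epha7, Epha8 and Epha2 did not pass the test. Epha3, a receptor of A ephrins, had 6.27 and 6.17 FPKM in DCKO against 7.24 and 7.73 FPKM in controls (log2 change -0.23, adjusted p = 0.0906). The Epha7 replicates of DCKO differed, with 1.55 and 2.57 FPKM against 3.09 and 2.78 FPKM in controls, and Epha7 was called lower when DCKO replicate 2 was left out (log2 change -0.62, adjusted p = 0.0493). Epha8 lay just inside the filter on low values, with 0.914 and 1.50 FPKM in DCKO against 1.22 and 1.35 FPKM in controls, and its groups overlapped. Epha2, which binds ephrin-A1 and is best known in epithelia, had 1.69 and 2.13 FPKM in DCKO against 1.68 and 1.72 FPKM in controls, also with overlap. Epha1 lay below the filter at 0.0528 to 0.0566 FPKM in DCKO and 0.0959 to 0.237 FPKM in controls.

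EphB receptors had the opposite balance. Of the 5 tested, 2 rose and 0 fell, where 13.0% of all tested genes rose and 14.3% fell. The summed level of the EphB genes was 25.0 and 30.6 FPKM in DCKO against 22.5 and 19.3 FPKM in controls. Ephb3, the EphB gene of highest mean, had 7.63 and 8.04 FPKM in DCKO against 6.26 and 5.37 FPKM in controls (log2 change 0.38, SE 0.10, limma adjusted p = 0.0491). The groups did not overlap, but the call was lost in each of the 4 fits with 1 library left out (adjusted p = 0.0827 to 0.261). Ephb1 had 6.09 and 7.02 FPKM in DCKO against 4.57 and 4.82 FPKM in controls (log2 change 0.41, SE 0.10, adjusted p = 0.0421). It missed the threshold when control replicate 1 (adjusted p = 0.176), control replicate 2 (0.133) or DCKO replicate 2 (0.0885) was left out. Neither EphB gene was called with no filter on low values, with a replicate block, or with DCKO replicate 2 or either control library left out.

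Ephb4, the receptor of ephrin-B2 on veins, had 5.18 and 7.13 FPKM in DCKO against 3.86 and 2.68 FPKM in controls. Its mean was 1.88-fold higher without overlap, but the replicates were wide apart in each genotype and the test was missed by a narrow margin (log2 change 0.75, 95% confidence interval 0.23 to 1.26, adjusted p = 0.0504). Ephb4 was called higher without control replicate 1 (adjusted p = 0.0271), and also with a pseudocount of 0.1, equal medians, quantile normalization or scaled counts (adjusted p = 0.0335 to 0.0493). Ephb6, a receptor with an inactive kinase domain, and Ephb2 overlapped between genotypes. The values were 3.92 and 4.60 FPKM of Ephb6 in DCKO against 4.94 and 4.40 FPKM in controls, and 2.15 and 3.77 FPKM of Ephb2 in DCKO against 2.85 and 2.08 FPKM in controls.

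**Figure D2:**
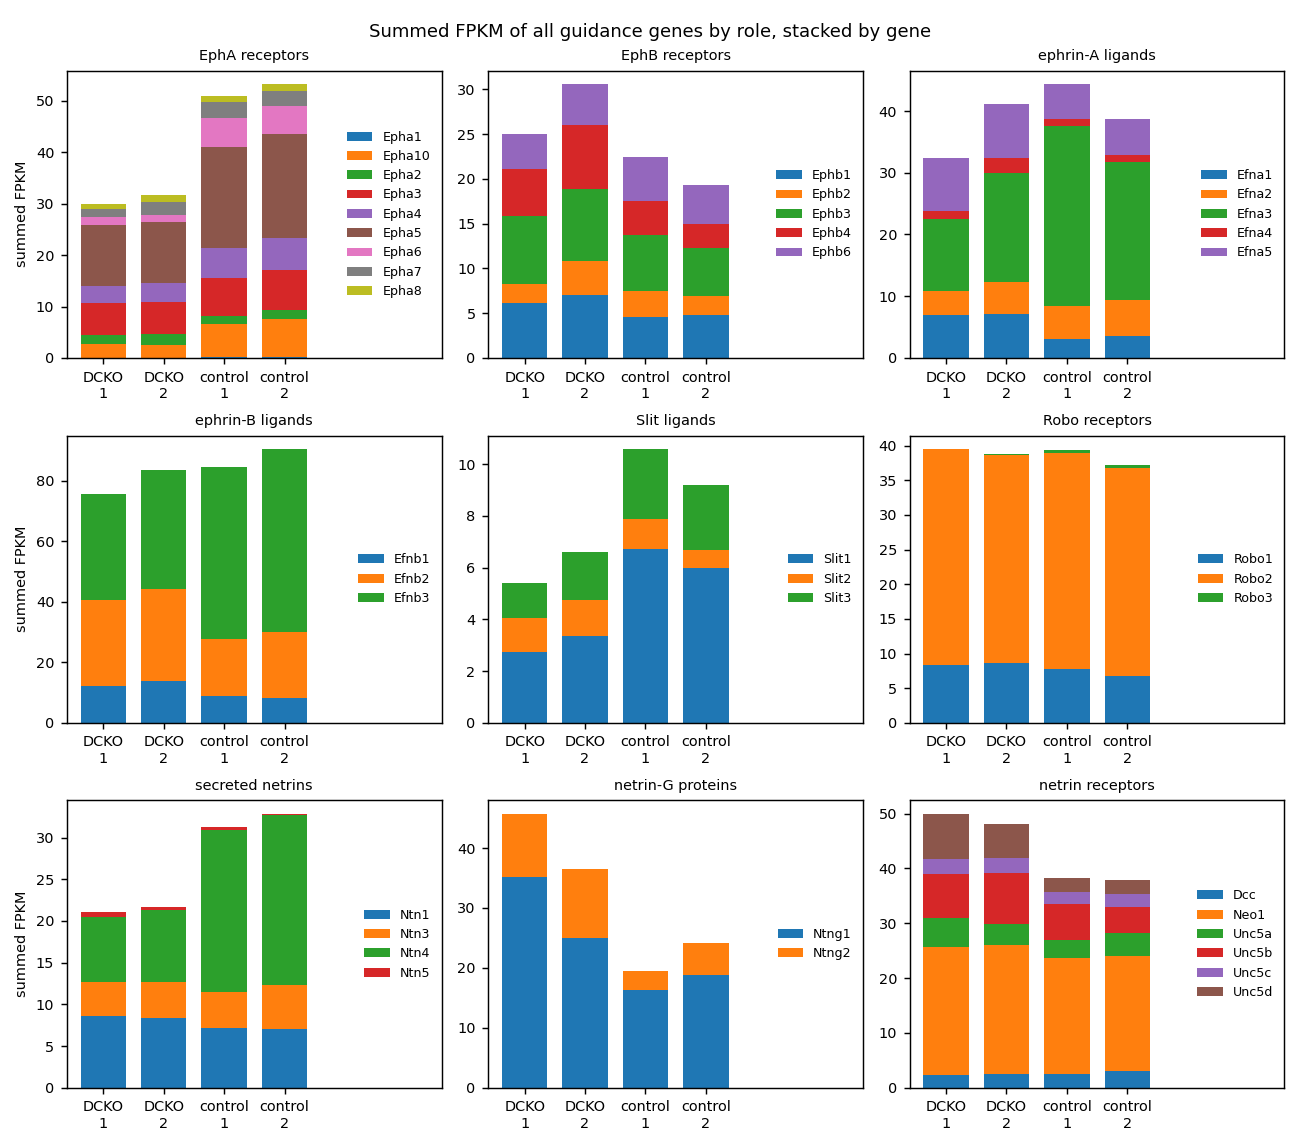
Summed FPKM in each of the 4 libraries for the 9 roles of the 40 guidance genes, with bars stacked by gene and DCKO left of control. EphA receptors, B ephrins, Slit ligands and secreted netrins have lower sums in both DCKO libraries than in controls, EphB receptors, netrin-G proteins and netrin receptors have higher sums, and the A ephrin and Robo sums overlap.

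Among ephrins, 4 of the 8 tested rose, 1 fell and 3 were not called, where 13.0% of all tested genes rose and 14.3% fell. In none of the 8 did the groups overlap, as in 71.5% of all tested genes. Efna1 rose most. It had 6.93 and 7.14 FPKM in DCKO against 3.01 and 3.48 FPKM in controls, a 2.17-fold higher mean (log2 change 0.92, SE 0.10, limma adjusted p = 0.00620). Efna5, an A ephrin studied for its repulsion of retinal axons, had 8.51 and 8.70 FPKM in DCKO against 5.56 and 5.77 FPKM in controls (log2 change 0.53, SE 0.08, adjusted p = 0.0125). Efna5 missed the threshold when control replicate 1 (adjusted p = 0.0639) or control replicate 2 (0.0556) was left out.

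Efna3, the most abundant A ephrin, went the other way without passing the test. It had 11.6 and 17.7 FPKM in DCKO against 29.1 and 22.4 FPKM in controls (log2 change -0.79, 95% confidence interval -1.37 to -0.21, adjusted p = 0.0587), and the replicates of each genotype differed widely. Efna3 was called lower without DCKO replicate 2 (adjusted p = 0.0363) or control replicate 2 (0.0357). As a share of the A ephrin sum, Efna3 made up 35.9% and 43.2% in DCKO against 65.6% and 58.0% in controls, and Efna1 made up 21.4% and 17.4% in DCKO against 6.79% and 9.00% in controls. Efna2 (log2 change -0.28) and Efna4 (0.36) were not called.

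The B ephrins moved in both directions. Efnb3, the guidance gene of highest mean level in either genotype, had 35.2 and 39.2 FPKM in DCKO against 56.8 and 60.3 FPKM in controls (log2 change -0.64, SE 0.08, limma adjusted p = 0.00890). Efnb2, known in axons, synapses and arteries, had 28.3 and 30.2 FPKM in DCKO against 18.8 and 21.8 FPKM in controls (log2 change 0.51, SE 0.10, adjusted p = 0.0220). Efnb1 had 12.2 and 13.9 FPKM in DCKO against 9.00 and 8.25 FPKM in controls (log2 change 0.55, SE 0.10, adjusted p = 0.0189). Efnb3 thus made up 46.5% and 47.1% of the B ephrin sum in DCKO against 67.2% and 66.7% in controls.

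Efnb2 missed the threshold when DCKO replicate 1 (adjusted p = 0.0567), DCKO replicate 2 (0.0678) or control replicate 1 (0.0714) was left out, and Efnb1 when control replicate 2 was (0.0761). Efnb1 is on chromosome X, and the libraries differed in Xist, the transcript of the inactive X chromosome, with 77.0 FPKM in DCKO replicate 1 and 0.0341 FPKM in DCKO replicate 2 against 0.0252 and 0.0355 FPKM in controls. Without DCKO replicate 1, Efnb1 was higher by 0.64 on the log2 scale. That fit holds a single DCKO library, and its direction was fixed, since the groups did not overlap. The part of sex in this result was not tested.

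Efnb2, Efna1, Ephb4 and Unc5b, all with positive log2 changes, are known to be expressed in blood vessels as well as in neurons. Ephb4 and Unc5b were not called, and Ntn4, also found in vessel walls, fell (log2 change -1.18). Of 10 endothelial markers, 4 rose and 0 fell, where 13.0% of all tested genes rose and 14.3% fell. The 10 had a median log2 change of 0.38. Their summed level was 215 to 231 FPKM in DCKO against 163 to 164 FPKM in controls. The tight junction gene Cldn5 had 122.8 and 119.5 FPKM in DCKO against 95.3 and 92.4 FPKM in controls. None of the 10 lay below 1 FPKM in both libraries of a genotype, and Robo4, the endothelial Robo gene, was not called (log2 change 0.16, adjusted p = 0.373). The part of vessel RNA in these results was not tested. Of 9 mural cell markers 8 were tested and 1 rose, and their sum was 158 to 197 FPKM in DCKO against 151 to 162 FPKM in controls. Astrocyte, microglia and cell division markers also mostly rose, with median log2 changes of 0.59, 0.51 and 0.88. Interneuron and neuroblast markers had medians of -2.54 and -0.90, and oligodendrocyte and olfactory sensory neuron markers gave no call.

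Of the Slit ligands, Slit1 fell and Slit2 and Slit3 were not called. Slit1, the neuronal Slit, had 2.75 and 3.35 FPKM in DCKO against 6.71 and 5.97 FPKM in controls, a 2.08-fold lower mean (log2 change -0.86, SE 0.12, limma adjusted p = 0.0109). Slit3 had 1.36 and 1.84 FPKM in DCKO against 2.71 and 2.51 FPKM in controls (log2 change -0.48, adjusted p = 0.0654), and passed with no variance trend (0.0478) and on scaled counts (0.0447). Slit2 had 1.30 and 1.40 FPKM in DCKO against 1.15 and 0.721 FPKM in controls (log2 change 0.29, 95% confidence interval -0.16 to 0.73, adjusted p = 0.257), and lay just inside the filter. The 3 Slits summed to 5.41 and 6.59 FPKM in DCKO against 10.6 and 9.20 FPKM in controls, and Slit1 made up 50.9% and 50.8% of the sum in DCKO against 63.5% and 64.9% in controls.

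The main Robo receptors gave no call. Robo2 was the second most abundant guidance gene in each genotype, with 31.1 and 30.1 FPKM in DCKO against 31.1 and 30.1 FPKM in controls. Its log2 change was 0.0021 with a 95% confidence interval of -0.16 to 0.17 (limma adjusted p = 0.982), and its sign turned with equal FPKM totals, on scaled counts and when DCKO replicate 1 or control replicate 2 was left out. Robo1 had 8.36 and 8.58 FPKM in DCKO against 7.80 and 6.70 FPKM in controls and was not called.

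Robo3, known for letting commissural axons cross the midline, lay below the filter but differed widely. It had 0.0137 and 0.0499 FPKM in DCKO against 0.470 and 0.481 FPKM in controls. In scaled fragment counts this was 0.977 and 3.63 in DCKO against 33.3 and 32.8 in controls, so the DCKO values rest on a few fragments. With no filter on low values Robo3 passed the threshold (log2 change -0.52, adjusted p = 0.0172), a change that the pseudocount of 1 compresses.

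**Figure D3:**
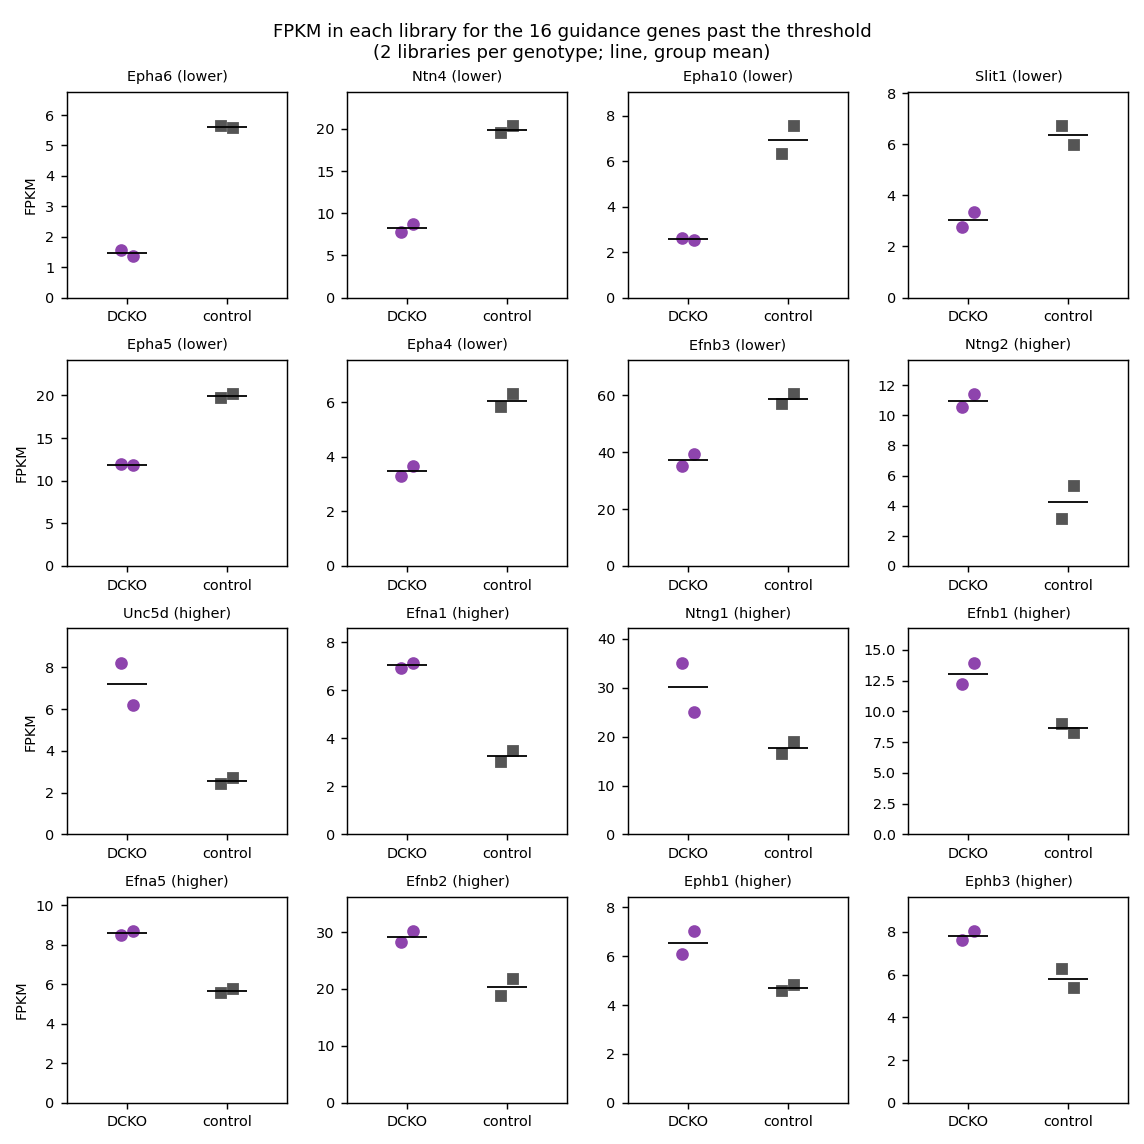
FPKM in each library of the 16 guidance genes past the threshold, with 2 libraries per genotype as points, the group mean as a line and each axis starting at 0. In every panel the DCKO points lie entirely below or entirely above the control points, and Ntng1 and Unc5d have the widest spread between DCKO libraries among the genes that rose.

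Of the secreted netrins, Ntn4 fell and Ntn1 and Ntn3 were not called. Ntn4, a laminin-related netrin also found in vessel walls, had 7.81 and 8.67 FPKM in DCKO against 19.5 and 20.3 FPKM in controls, a 2.42-fold lower mean (log2 change -1.18, SE 0.08, limma adjusted p = 0.00229). The call was kept in all 14 alternatives, with an adjusted p of at most 0.0133. Ntn1, the classical axon attractant, had 8.64 and 8.34 FPKM in DCKO against 7.15 and 7.03 FPKM in controls, without overlap (log2 change 0.23, adjusted p = 0.0801). Ntn1 passed on scaled counts (adjusted p = 0.0387) and with equal medians (0.0487). Ntn4 held 37.2% and 40.1% of the netrin sum in DCKO against 62.2% and 62.0% in controls, and Ntn1 held 41.1% and 38.5% in DCKO against 22.8% and 21.4% in controls. Ntn1 was therefore close to Ntn4 in DCKO, at a mean of 8.49 against 8.24 FPKM, where their ranges overlapped. Ntn5 lay below the filter with a mean of 0.335 FPKM, at 0.547 and 0.301 FPKM in DCKO against 0.351 and 0.143 FPKM in controls.

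The netrin-G genes rose together. Ntng2 had 10.6 and 11.4 FPKM in DCKO against 3.12 and 5.31 FPKM in controls, a 2.60-fold higher mean (log2 change 1.23, SE 0.21, limma adjusted p = 0.0179). The control replicates differed, and the call was lost without DCKO replicate 1 (adjusted p = 0.0687) or DCKO replicate 2 (0.0704). Ntng1 had 35.1 and 25.1 FPKM in DCKO against 16.4 and 18.8 FPKM in controls (log2 change 0.73, SE 0.17, adjusted p = 0.0389). Ntng1 is known on axons of mitral cells. Here the DCKO replicates differed, and the call was lost without DCKO replicate 1 (log2 change 0.49, adjusted p = 0.0629) or control replicate 1 (0.0743). Mitral and tufted cell markers, 9 in the table, summed to 2092 and 1788 FPKM in DCKO against 965 and 1039 FPKM in controls. The part of these cells in the Ntng1 result was not tested.

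Among the netrin receptors Unc5d rose, and 5 of 6 were not called. The share that rose was 16.7%, near the 13.0% of all tested genes. Unc5d had 8.22 and 6.21 FPKM in DCKO against 2.43 and 2.70 FPKM in controls, a 2.81-fold higher mean (log2 change 1.19, SE 0.15, limma adjusted p = 0.00830), and the call was kept with any library left out. Its scaled counts were 1369 to 1883 in DCKO against 544 to 630 in controls. Unc5b, an endothelial and neuronal receptor, had 8.05 and 9.34 FPKM in DCKO against 6.52 and 4.75 FPKM in controls (log2 change 0.56, adjusted p = 0.0577) and passed without control replicate 1 (0.0267). It also passed with a filter at 5 FPKM, equal medians, quantile normalization or scaled counts (adjusted p = 0.0332 to 0.0497).

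Neo1, the most abundant netrin receptor, also binds repulsive guidance molecules. It had 23.4 and 23.4 FPKM in DCKO against 21.0 and 20.9 FPKM in controls, a narrow difference without overlap that did not pass (log2 change 0.15, 95% confidence interval -0.01 to 0.31, adjusted p = 0.130). Dcc had 2.32 and 2.57 FPKM in DCKO against 2.59 and 3.09 FPKM in controls (log2 change -0.15, adjusted p = 0.384). Unc5a (log2 change 0.20) and Unc5c (0.19) were not called either.

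In order of mean level, the 5 most abundant guidance genes were Efnb3, Robo2, Ntng1, Efnb2 and Neo1 in DCKO and Efnb3, Robo2, Efna3, Neo1 and Efnb2 in controls. Many neighbours in the order cannot be separated, since 28 of 39 neighbouring pairs overlapped within DCKO and 28 of 39 within controls. Unc5d stood at place 16 in DCKO and 31 in controls, Ntng2 at 9 and 24, and Efna1 at 17 and 27. In the opposite direction, Epha10 stood at 29 in DCKO and 13 in controls, Epha6 at 35 and 20, and Slit1 at 26 and 14. The replicates of DCKO differed by a median of 0.13 on the log2 scale over the tested guidance genes, and those of controls by 0.11, against 0.12 and 0.08 over all tested genes. DCKO replicate 2 exceeded DCKO replicate 1 for 27 of the 37, or 73.0%, against 59.4% of all tested genes.

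The 40 genes lie on 17 chromosomes, all as protein-coding genes of GENCODE M21 (GRCm38). Efna1 (chromosome 3, 89271733 to 89281142), Efna3 (89313899 to 89322965) and Efna4 (89333390 to 89338028) share the - strand of a 66.3 kb stretch. Across it Efna1 rose, and Efna3 and Efna4 were not called, with log2 changes of opposite sign. The exons of 12 of the 40 genes overlap exons of another gene, among them 4 called genes, Epha6, Epha10, Ephb1 and Ntng2. Since the strand setting is not given in the sources used here, reads in overlaps of opposite strands cannot be assigned with certainty. For Ntng2 the overlapping gene, 6530402F18Rik, is on the same strand, where no strand setting could separate the reads. This gene stood at 2.92 and 2.94 FPKM in DCKO against 1.51 and 1.65 FPKM in controls. It was itself called higher (log2 change 0.61, limma adjusted p = 0.0212).

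Other genes of these pathways changed in both directions. Of 69 tested genes that act with the ephrins, Slits or netrins, 16 rose and 17 fell, or 47.8% in either direction against 27.3% of all tested genes, with a median log2 change of 0.01. Without control replicate 1 the counts were 5 and 11, against 1159 and 1030 over all genes, and without control replicate 2 they were 5 and 12, against 806 and 1036. Among 25 genes of ephrin signalling, 4 rose (16%) and 9 fell (36%), against 13.0% and 14.3% of all tested genes. Sipa1l1, a Rap regulator known downstream of EphA receptors, had 10.8 and 12.3 FPKM in DCKO against 44.9 and 50.7 FPKM in controls (log2 change -1.96, limma adjusted p = 0.00114). Grip1, a scaffold that binds ephrin-B tails, had 3.57 and 4.39 FPKM in DCKO against 18.7 and 16.6 FPKM in controls (log2 change -1.91, adjusted p = 0.00169). Its relative Grip2 (-1.38) and the Ras regulator Rasa1 (-1.03), which docks on EphB receptors, fell as well. In this list 1 gene was called higher without control replicate 1 and 1 without control replicate 2, in place of 4.

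Genes that act with Slit and Robo were mostly higher where they were called. Of 21 tested, 8 rose (38.1%), 1 fell (4.76%) and 12 were not called, where 13.0% of all tested genes rose and 14.3% fell. Nell1, a secreted relative of the Robo3 ligand Nell2, had 18.9 and 20.2 FPKM in DCKO against 9.84 and 11.6 FPKM in controls (log2 change 0.82, adjusted p = 0.00814). The proteoglycan Sdc3 (0.62), Ext1 (0.54), which extends the heparan sulfate chains that Slits bind, and the Robo and Unc5 partner Flrt3 (0.64) rose too. Sdc3 missed the threshold when control replicate 1 (adjusted p = 0.0531) or control replicate 2 (0.0546) was left out, and so did Flrt3 (0.0821 and 0.0989), also without DCKO replicate 2 (0.0801). In the Slit-Robo list 2 genes were called higher without control replicate 1 and 2 without control replicate 2, in place of 8.

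Of 25 tested genes that act with netrins, 4 rose (16%) and 7 fell (28%), against 13.0% and 14.3% of all tested genes. Fewer of them were called in either direction with either control library left out. Dscam, a cell adhesion molecule proposed as a netrin receptor, had 2.91 and 3.34 FPKM in DCKO against 14.2 and 15.4 FPKM in controls, a 4.73-fold lower mean (log2 change -1.94, SE 0.10, limma adjusted p = 0.00112). Lrrc4, the adhesion partner of netrin-G2, had 4.51 and 5.39 FPKM in DCKO against 9.56 and 9.82 FPKM in controls (log2 change -0.85, adjusted p = 0.00801), while Ntng2 itself rose. Lrrc4c, the partner of netrin-G1, was not called (log2 change 0.11, adjusted p = 0.402). The Rac activator Dock1 (0.82) rose, and the actin-binding gene Ablim1 (-0.79), whose relative acts in netrin guidance in Caenorhabditis elegans, fell. Lists of pathway genes were chosen with earlier results of these data known, so their counts are a description.

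**Figure D4:**
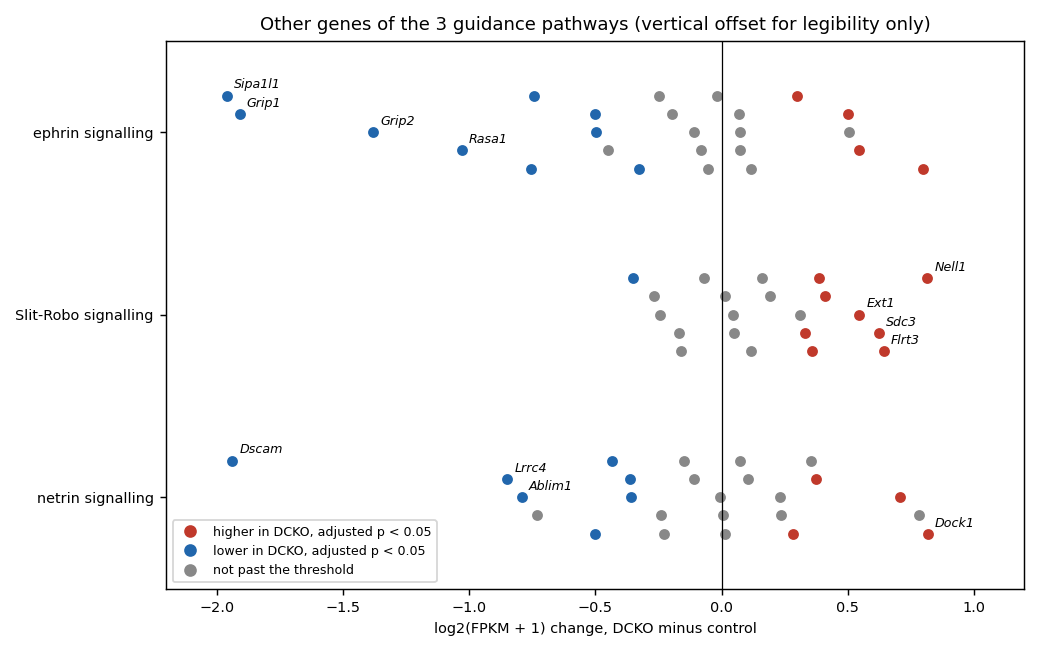
Log2 change of FPKM + 1, DCKO minus control, for the tested genes that act with ephrins (25), Slits and Robos (21) and netrins (25), where Fyn and Nck1 appear in the ephrin and the netrin row. Sipa1l1, Grip1 and Dscam lie farthest to the left, and the called Slit-Robo genes lie right of 0 with 1 exception.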

How the data were processed

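Total RNA of olfactory bulb was sequenced in 2 DCKO and 2 control libraries. Per the submitters' processing notes, TopHat (version not given) and Cufflinks 2.1.1 were run against GRCm38.p4. Neither the annotation nor the strand setting is given in the sources used here. For each gene and library the deposited table gives FPKM made by the authors. Its columns headed count are treated as a signal scaled by the authors, since only 98.7% to 98.9% of nonzero values are whole, to within 0.05, once divided by a unit specific to the library. Therefore no count model was run. Here limma 3.58.1 (R 4.3.3) was fitted to log2(FPKM + 1) of 13434 genes that averaged 1 FPKM or more, with a variance trend and no covariates, and was tested on simulated data. This scale understates changes of low genes. The 37 guidance genes past that filter were tested among all genes. Genes were named by rule: all called members, the highest of each role, Robo1, Robo2, Slit1, Slit2, Epha4, Efnb2, Ntn1, Dcc and Neo1, 2 on each side of the filter, and up to 4 called genes per pathway list. Other members, Lrrc4c and Robo4 were named after their values were seen. Also outside this rule are the targeted genes, Xist, the markers Tbx21 and Cldn5, the gene that overlaps Ntng2 and the neighbours of the clustered ephrin genes. The members and lists were chosen with earlier results of these data known. Further marker lists gave 6 of 10 astrocyte genes higher, and 7 of 10 microglia genes higher and 1 lower. They gave 4 of 8 olfactory ensheathing genes, 7 of 8 cell division genes and 1 of 8 meningeal genes higher. In either direction 0 of 9 oligodendrocyte and 0 of 7 olfactory sensory neuron genes were called. Alternatives covered pseudocount, filter, scaling, variance trend, replicate block, scaled counts and each library left out. Sequences are from RefSeq (GRCm38.p6), which held promoters of 35 of the 40 genes.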

Additional observations from a re-analysis of the deposited data

How the results depend on the processing

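The 16 called guidance genes kept their direction in every alternative in which they were tested, and 8 kept their call in all of these. With 1 library left out the number of guidance genes called higher was 5 to 6 and the number called lower 7 to 9, against 9 and 7. Over all genes these fits gave 806 to 1384 higher and 1030 to 1875 lower, and over the pathway genes 5 to 16 higher and 11 to 17 lower. In the fits with 1 library of a genotype, that library is assumed to vary like the other pair. There, and with another pseudocount, the direction of the 16 called genes could not turn, since their groups did not overlap. The filters, the fit with no variance trend and the replicate block leave the log2 change unaltered. With the filter raised to 5 FPKM, 4 guidance genes were called lower, since 19 were tested. With no filter 10 pathway genes were called higher in place of 16, where 19592 genes were tested. Signs turned for genes that were not called: Robo2 with equal FPKM totals (-0.011) and on scaled counts (-0.026), and with 1 library left out Robo2 (-0.021 to 0.025), Epha8 (-0.25 to 0.13), Epha2 (-0.0026 to 0.22) and Ephb2 (-0.13 to 0.47). The replicate numbers are not said to pair libraries, and deviations of same-numbered libraries correlated at -0.02 over 13434 genes. With a replicate block 6 guidance genes were called higher and 7 lower, and over all genes 1312 and 1418. The planned edgeR test was not run, because the values headed count are not all whole reads. Fragment numbers limit Robo3, Epha1 and Ntn5, at no more than 33.3 scaled counts in any library. They were also low for Efna4, which was tested, at 24.1 to 51.8. Of the called genes, Ntng2 had 167 and 181 scaled counts in DCKO against 51.4 and 82.5 in controls. Efna1 had 154 and 157 in DCKO against 66.5 and 76.2 in controls.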

Other observations

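Around the 3 clustered ephrin genes of chromosome 3, 19 other tested genes lie in the stretch or within 100 kb of it, a region chosen after the values of Efna1 and Efna3 were seen. Of these 3 rose and 3 fell, where 27.3% of all tested genes were called in either direction. Cks1b, a partner of cyclin-dependent kinases, had 9.45 and 12.02 FPKM in DCKO against 5.38 and 5.96 FPKM in controls (log2 change 0.81, limma adjusted p = 0.0156). The Pbx-binding protein gene Pbxip1 (0.54) and the signalling adaptor Shc1 (0.39) rose as well. Trim46, a microtubule protein of the axon initial segment, had 19.8 and 19.8 FPKM in DCKO against 28.5 and 28.7 FPKM in controls (log2 change -0.51, adjusted p = 0.00822). Thbs3 (-0.42) and Flad1 (-0.38) also fell. The tested genes next to Efna1 and Efna4 on the outer sides, Slc50a1 (0.32, adjusted p = 0.0631) and Adam15 (0.33, adjusted p = 0.0545), were not called.

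Semaphorins, plexins and neuropilins form another group of guidance genes. Of 31 tested, 9 rose and 6 fell, or 48.4% in either direction against 27.3% of all tested genes, with a median log2 change of 0.06. The difference from the guidance genes of the report was not tested.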
